A study of Mus musculus with 12 samples.

Results

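The genes described here separate lymphoid-primed multipotent progenitors (LMPP) of mouse bone marrow from the average of 2 progenitors of narrower fate, the common lymphoid progenitor (CLP) and the granulocyte-monocyte progenitor (GMP). For each gene the mean of LMPP on the log2(TPM + 1) scale was set against the average of the CLP mean and the GMP mean, with batch as a term; TPM is a transcript level corrected for transcript length and for the total of the library. Of 38924 gene IDs in the deposited table, 12718 reached at least 1 TPM in at least 4 of the 12 libraries and were tested. A gene counted as moving the same way in both branches when the mean contrast, LMPP minus CLP and LMPP minus GMP all passed a limma adjusted p under 0.05 with the same sign. These were 573 genes, 491 of them higher and 82 lower in LMPP. The pairwise differences share the LMPP libraries, so they are not independent evidence for a gene.

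All 3 groups were wild-type, untreated cells sorted from the marrow of C57Bl/6J females after depletion of cells carrying CD3e, CD11b, B220, Gr-1 or TER-119. LMPP were gated as Lin- Sca1+ cKit+ CD150- CD34+ and high for Flk2, CLP as Lin- IL7Ra+ Flk2+ with low Sca1 and low cKit, and GMP as Lin- Sca1- cKit+ CD150- CD34+ and positive for the Fc gamma receptor. Each type has 4 libraries, 2 in each of 2 batches. The labels give neither the age of the donors of these bulk libraries nor what a batch stands for, and no label states that libraries are from different animals; the p-values describe the spread among these libraries only, and that spread may be technical.

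LMPP keep the capacity to form lymphoid and myeloid cells and have lost most of the megakaryocyte and erythroid output of stem cells. On leaving this state a cell closes 1 set of options and keeps the other. A contrast with the average of both branches can be set by 1 lineage programme, while a gene that differs the same way from CLP and from GMP differs from both fates. Transcription factors of the stem cell state, such as those of the HOX and PAR bZIP families, are known for their roles in self-renewal.

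The libraries were first compared with markers of the sorted types and of other marrow cells. Il7r, the interleukin 7 receptor chain of the CLP gate, ranged over 5.14 to 11.3 TPM in LMPP, 76.6 to 129.8 in CLP and 0.04 to 0.3 in GMP. Elane, neutrophil elastase, ranged over 12.1 to 86.5 TPM in LMPP, 1.79 to 320.1 in CLP and 2856 to 4411 in GMP. The libraries LMPP batch 2 replicate 1 and CLP batch 2 replicate 1, called the haemoglobin-rich pair below, stood apart. The summed TPM of 11 tested mature red cell genes was 28664 and 13648 in them and 47.4 to 2507 in the other 10 libraries. The sum of 20 listed mature neutrophil and macrophage genes was 27319 and 12677 against 30.1 to 2052. CLP libraries of batch 2 went against their gate. Flt3, the gene of Flk2, was at 8.91 and 17.0 TPM in them and at 138 and 146 TPM in CLP of batch 1, and their summed B lineage genes were at 6676 and 8220 TPM against 1411 and 296. Counts are therefore given with and without these libraries. Sequencing depth is unknown, because TPM carries no read totals, and a value of 0 means that a gene is listed at 0.

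LMPP stood above the average of the other types far more often than below it. The mean contrast called 1946 genes higher in LMPP, 15.3% of those tested, and 505 lower, or 3.97%. Requiring the same call in each branch left 491 higher, 3.86% of tested genes, and 82 lower, 0.645%. Of the 1946 higher genes, 1173 were called against GMP and not against CLP, 204 against CLP and not against GMP, and 78 in neither branch. Of the 505 lower genes, 329 passed against GMP alone, 75 against CLP alone and 19 in neither. Most mean contrast calls thus passed in 1 branch only, and 25.2% of the higher calls and 16.2% of the lower calls held in both. Missing the threshold in a branch is not a lack of difference there. Both pairwise differences had the sign of the mean contrast in 1858 of the higher and 428 of the lower calls. Only 9 and 7 were called the opposite way in 1 branch. The 4 LMPP libraries lay above all 8 others for 591 tested genes, 4.65%, and below all 8 for 62, 0.487%; 361 of the 491 and 29 of the 82 had no overlap.

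**Figure D1:**
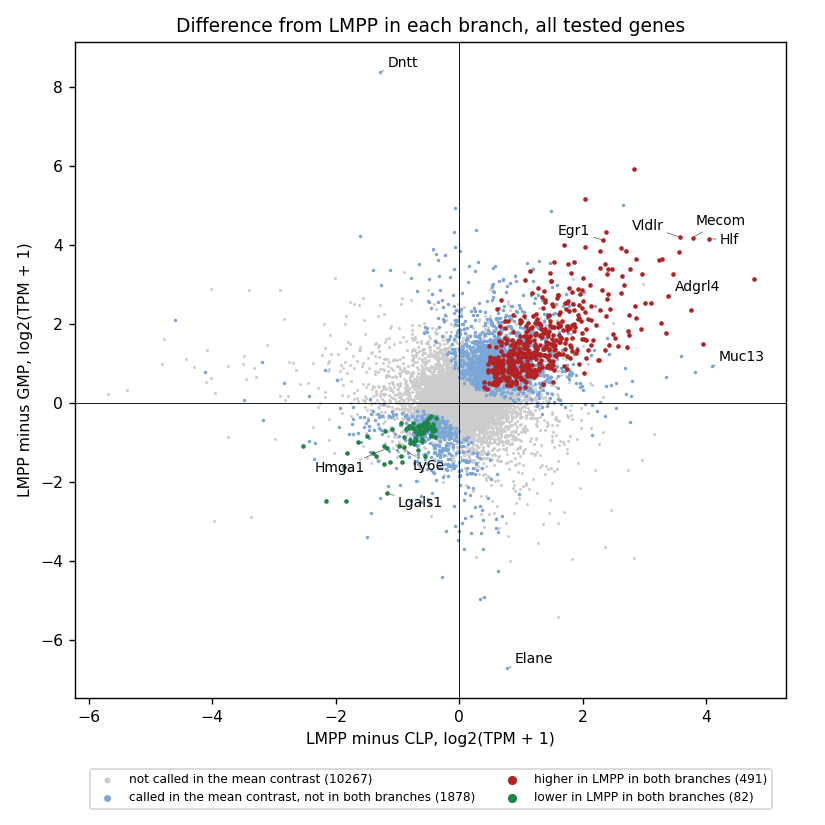
Each point is 1 tested gene, placed by its difference LMPP minus CLP (x axis) and LMPP minus GMP (y axis) on the log2(TPM + 1) scale; red marks the 491 genes higher in both branches, green the 82 lower in both, blue genes called in the mean contrast and not in both branches, grey the rest. Hlf lies at 4.05 and 4.17, while Dntt (-1.28 and 8.38) and Elane (0.78 and -6.69) owe their mean contrast to the GMP branch.

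The higher set moved further than the lower set. The smaller of the 2 pairwise differences, called the smaller difference below, had a median of 1.09 over the 491 genes and was at least 1, a 2-fold change, in 266 of them. It had a median of -0.6 over the 82 lower genes and reached 2-fold in 12. Over all tested genes the median mean contrast was 0.2, so a typical gene already stood slightly above the other types in LMPP. This excess depended on scaling. Median-ratio scaling, which moved that median by -0.185, gave 265 higher and 247 lower genes in both branches, and quantile normalization, which moved it by -0.221, gave 285 and 195. The share of higher genes among the calls in both branches went from 85.7% to 51.8% and 59.4%, and among the mean contrast calls from 79.4% to 48.2% and 51.7%. All 265 genes called higher under median-ratio scaling were among the 491, and all 82 lower genes kept their call.

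Near the threshold, Ppp1r13b was the last gene inside the higher set, with means of 13.1 ± 2.11 TPM in LMPP, 6.83 ± 2.18 in CLP and 4.09 ± 1.28 in GMP (SD, n = 4) and pairwise differences of 0.88 to CLP and 1.49 to GMP, and Gm17193 was the first outside, with differences of 0.99 to CLP and 0.82 to GMP. Rpl41 was the last inside the lower set, at -0.57 to CLP and -0.56 to GMP, and Polr2i the first outside, at -0.63 to CLP and -0.58 to GMP. The counts also rested on single libraries. Without LMPP batch 1 replicate 1, LMPP batch 2 replicate 3 or GMP batch 1 replicate 1 the higher count in both branches was 240, 246 or 325. The lower count was 40, 50 and 47 without the same 3 libraries, 44 without LMPP batch 2 replicate 1, 52 without GMP batch 1 replicate 2 and 50 without GMP batch 2 replicate 1. The mean contrast called 1043 higher genes without LMPP batch 1 replicate 1 and 1076 without LMPP batch 2 replicate 3. It called 245, 255 and 320 lower genes without LMPP batch 1 replicate 1, LMPP batch 2 replicate 3 and GMP batch 1 replicate 1. Without the haemoglobin-rich pair 349 were higher and 36 lower in both branches, and without both CLP libraries of batch 2 the counts were 327 and 58.

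Regulators of the haematopoietic stem cell state were often in the higher set. Of 30 listed stem and multipotent genes 27 were tested. In both branches 16 were higher, beside 3.86% of all tested genes, 5 more were higher in the mean contrast only, and none was lower. The median mean contrast of the 27 was 1.39, with 1.11 to CLP and 1.49 to GMP, against 0.2 for all tested genes. The list was drawn up with earlier results of these libraries known, so the count describes them and is not independent evidence. The summed TPM of the list ran from 1025 to 1340 in LMPP, 453 to 529 in CLP and 272 to 420 in GMP, with no overlap between LMPP and the rest. In bulk samples, fewer cells with a transcript and less of it per cell cannot be told apart.

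Hlf, a PAR-domain bZIP transcription factor of stem cells (chr11:90336536-90390895), had the largest smaller difference of all named genes. Values are given in the order of batch 1 and then batch 2 within each type: Hlf was at 91, 84.5, 91.2 and 153 TPM in LMPP, 7.42, 9.05, 2.29 and 4.32 in CLP and 5.88, 3.42, 6.3 and 3.81 in GMP. The lowest LMPP library, 84.5 TPM, lay far above the highest of the others, 9.05 TPM, and the log2 difference was 4.05 to CLP (SE 0.33, limma adjusted p = 8.62e-05) and 4.17 to GMP (SE 0.33, limma adjusted p = 1.34e-05). Mecom, a zinc finger regulator needed for stem cell maintenance (chr3:29951296-30548008), was at 69.4, 20.7, 26.9 and 78.4 TPM in LMPP, 2.72, 16.2, 0.33 and 0.11 in CLP and 1.35, 2.6, 1.39 and 0.48 in GMP. Its lowest LMPP library, at 20.7 TPM, lay close to the highest CLP library, at 16.2 TPM, without overlap. The differences were 3.78 to CLP and 4.2 to GMP (limma adjusted p = 0.00531 and 0.000822). Both act in self-renewal programmes, and the averages of the restricted types were 5.77 and 4.85 TPM for Hlf and 4.84 and 1.46 TPM for Mecom, CLP first.

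**Figure D2:**
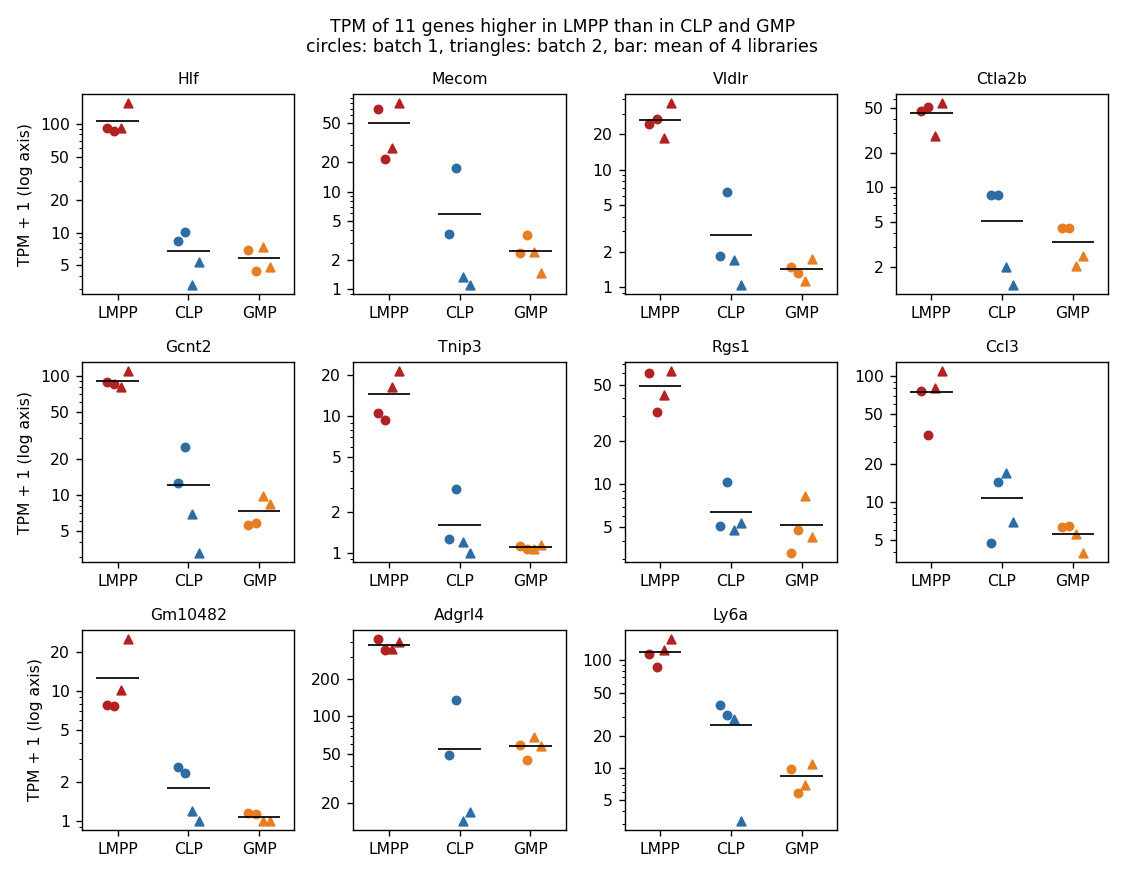
TPM + 1 on a log axis for 11 of the 12 genes chosen by rule from the higher set, with 1 point per library (circles batch 1, triangles batch 2) and a bar at the mean of 4 libraries. LMPP points lie above all CLP and GMP points in every panel; the narrowest gap is in Mecom (20.7 against 16.2 TPM before adding 1).

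A partner of this programme followed. Meis1, a homeobox cofactor of HOX proteins (chr11:18879817-19018985), was at 63.9, 53.1, 74.1 and 112 TPM in LMPP, 16.9, 28.3, 6.18 and 3.72 in CLP and 7.03, 6.21, 11.5 and 8.88 in GMP. Every LMPP library was above every other library, with differences of 2.68 to CLP and 3.0 to GMP. Of 19 listed HOXA genes and cofactors 13 were tested and 3 were higher in both branches, beside 3.86% of all tested genes. Meis1 and Hoxa10 were among the 3, while Hoxa2, Hoxa5 and Hoxa9 passed in the mean contrast only. Hoxa10 was at 9.78, 5.13, 5.42 and 5.46 TPM in LMPP, 1.36, 4.02, 0.05 and 0 in CLP and 0.29, 0.43, 0.13 and 0.33 in GMP, high in LMPP batch 1 replicate 1 and near 0 in CLP of batch 2. Hoxa9 averaged 23.5 ± 6.98 TPM in LMPP, 13 ± 14.2 in CLP and 4 ± 0.717 in GMP (SD, n = 4) and missed the call against CLP (1.38, limma adjusted p = 0.0935). The median mean contrast of the 13 was 1.05.

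Lmo2 and Tal1 encode parts of a transcription complex that specifies blood cells. Lmo2 was at 292, 299, 345 and 380.2 TPM in LMPP, 55.4, 66.4, 56.5 and 27.6 in CLP and 100.3, 101, 164 and 133 in GMP, an abundant transcript whose lowest LMPP library was 292 TPM and whose highest other library was 164 TPM. Tal1 was lower in level, at 12.1, 11.9, 20.1 and 11.3 TPM in LMPP, 1.92, 3.26, 6.13 and 3.44 in CLP and 4.55, 4.21, 10.5 and 8.72 in GMP, and its LMPP batch 2 replicate 1 value stood above the other 3. The differences were 2.71 to CLP and 1.42 to GMP for Lmo2 (limma adjusted p = 0.000122 and 0.00165) and 1.7 to CLP and 0.94 to GMP for Tal1 (limma adjusted p = 0.00171 and 0.0141). Myct1, a stem cell gene linked to MYC, ranged over 11.3 to 21.3 TPM in LMPP, 0.03 to 0.6 in CLP and 1.82 to 3.29 in GMP. Msi2, an RNA-binding protein, averaged 81.8 ± 13.3 TPM in LMPP, 52.9 ± 4.32 in CLP and 14.8 ± 2.69 in GMP (SD, n = 4), which placed CLP much nearer to LMPP than GMP was. Eya1, Nrip1, Robo4 and Fgd5 were also called in both branches, with smaller differences of 0.99, 0.84, 1.66 and 1.37; Robo4 averaged 3.47 ± 0.76 TPM in LMPP, 0.438 ± 0.372 in CLP and 0.04 ± 0.0542 in GMP (SD, n = 4), a low transcript even in LMPP.

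Not every gene of the stem cell state moved in both branches. Gata2, a zinc finger factor, averaged 10.5 ± 2.8 TPM in LMPP, 1.5 ± 1.61 in CLP and 13.4 ± 4.17 in GMP (SD, n = 4); it passed against CLP (2.37) and was -0.31 to GMP. Mycn, a MYC family factor, averaged 8.01 ± 2.51 TPM in LMPP, 7.07 ± 6.15 in CLP and 0.22 ± 0.114 in GMP (SD, n = 4), and Egfl7 averaged 86.5 ± 35.9 TPM in LMPP, 73.4 ± 63.1 in CLP and 8.77 ± 3.03 in GMP (SD, n = 4); both passed against GMP and not against CLP. Hoxb4 and Zfp521 passed the mean contrast with smaller differences of 0.78 and 0.84. Mllt3, Tek, Erg, Fli1, Prdm16 and Ctnnal1 were not called in the mean contrast. Erg, an ETS factor, averaged 84.9 ± 16.2 TPM in LMPP, 141 ± 83.9 in CLP and 28.5 ± 4.4 in GMP (SD, n = 4), and Fli1, another ETS factor, averaged 57.8 ± 6.15 TPM in LMPP, 52.4 ± 17.9 in CLP and 69.9 ± 13.4 in GMP (SD, n = 4). Tal1 (0.64) lost its call under quantile normalization, and Mecom (2.51) and Hoxa10 (1.19) lost their calls without both CLP libraries of batch 2. The list count in both branches was 13 under median-ratio scaling, 12 under quantile normalization, 14 without the haemoglobin-rich pair, 11 without both CLP libraries of batch 2, 11 within batch 1 and 9 within batch 2.

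Angpt1 and Procr, both named after their values were seen, were also higher in LMPP in both branches. Angpt1, angiopoietin 1, a ligand of the Tek receptor (chr15:42424723-42676977), was at 74.5, 68.9, 49.3 and 61.6 TPM in LMPP, 10.1, 12.7, 3.41 and 4.84 in CLP and 7.02, 6.85, 17.4 and 11.9 in GMP. The lowest LMPP library, 49.3 TPM, lay above the highest other, 17.4 TPM, with differences of 3.02 to CLP and 2.53 to GMP (limma adjusted p = 0.000598 and 0.000441). Procr, the protein C receptor and a surface marker of stem cells, ranged over 4.68 to 8.33 TPM in LMPP, 0 to 0.19 in CLP and 0.05 to 1.31 in GMP, and the libraries of the other types were at or near 0 apart from a GMP library at 1.31 TPM. Tek itself was not called.

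Of 30 listed growth factor and cytokine receptors 29 were tested. In both branches 6 were higher, beside 3.86% of all tested genes, among them Il1r1, Notch2, Il12rb2, Bmpr2 and Acvr1b. In the mean contrast only, 6 more were higher and 1, Ifngr1, was lower. Il1r1, the signalling receptor of interleukin 1 (chr1:40225080-40317257), was at 26.9, 33, 35.1 and 40.02 TPM in LMPP, 10.6, 15.5, 1.4 and 3.42 in CLP and 1.07, 1.78, 2.98 and 2.53 in GMP. Its CLP libraries differed by batch, 10.6 and 15.5 TPM against 1.4 and 3.42 TPM, and all 4 were below the lowest LMPP library; the differences were 2.36 to CLP and 3.52 to GMP (limma adjusted p = 0.0111 and 0.000324). Bmpr2, a bone morphogenetic protein receptor, was at 15.4, 17.2, 28.5 and 32 TPM in LMPP, 8.05, 11.9, 14.3 and 13.4 in CLP and 8.01, 5.98, 18.2 and 18.7 in GMP, and its LMPP libraries of batch 1 overlapped GMP of batch 2. Acvr1b, an activin receptor, ranged over 7.19 to 12.1 TPM in LMPP, 3.5 to 5.35 in CLP and 5.43 to 6.04 in GMP, without overlap. Notch2, a receptor of Notch ligands, ranged over 29.4 to 42.4 TPM in LMPP, 4.91 to 22.9 in CLP and 12.6 to 21.2 in GMP, and Il12rb2, a chain of the interleukin 12 receptor, over 6.32 to 10.1 TPM in LMPP, 0.94 to 4.14 in CLP and 2.72 to 5.27 in GMP. Notch2 lost its call in 9 of the 12 fits that each left out 1 library (smaller difference 0.9 to 1.29), Il12rb2 in 8 (0.73 to 1.05) and Acvr1b in 6 (0.57 to 0.78). Bmpr2 lost its call, with the smaller difference then in brackets, without LMPP batch 2 replicate 3 (0.85). Acvr1b (0.43), Notch2 (0.85) and Il12rb2 (0.67) lost their calls under median-ratio scaling, and Acvr1b (0.29), Notch2 (0.93) and Il12rb2 (0.47) lost their calls under quantile normalization. Bmpr2 (0.85) and Notch2 (1.05) lost their calls without the haemoglobin-rich pair, and Bmpr2 (0.57), Notch2 (0.4) and Il12rb2 (0.88) lost their calls without both CLP libraries of batch 2.

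A ligand of the same superfamily as the Bmpr2 and Acvr1b ligands went the other way. Tgfb1, transforming growth factor beta 1 (chr7:25687002-25705077), was at 31.7, 33, 25 and 36.1 TPM in LMPP, 48.8, 42.5, 46.4 and 56.5 in CLP and 64.4, 45.8, 51.8 and 54.7 in GMP. Every LMPP library was below every other library, with differences of -0.62 to CLP and -0.77 to GMP (limma adjusted p = 0.0314 and 0.00398). Its receptor gene Tgfbr2 averaged 11.8 ± 2.54 TPM in LMPP, 8.59 ± 4.32 in CLP and 3.21 ± 0.793 in GMP (SD, n = 4) and was called against GMP and not against CLP. Ifngr1, the ligand-binding chain of the interferon gamma receptor, averaged 45.9 ± 8.17 TPM in LMPP, 40.8 ± 15.9 in CLP and 142 ± 8.55 in GMP (SD, n = 4), a difference set by GMP. Tgfb1 lost its call in 4 of the 12 fits that each left out 1 library (smaller difference -0.69 to -0.5). Tgfb1 (-0.53) lost its call without the haemoglobin-rich pair, and Tgfb1 (-0.5) lost its call without both CLP libraries of batch 2.

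Adhesion molecules gave few calls. Of 24 listed adhesion and homing genes 22 were tested, with Itga6 and Esam higher and Cxcr4 lower in both branches and Itgb7 higher in the mean contrast only. The other 18 were not called, and the list median was 0.23, beside 0.2 over all tested genes. With 3.86% of all tested genes higher and 0.645% lower in both branches, these calls describe single genes and not the list. Itga6, the integrin alpha 6 chain that binds laminin, was at 102, 63.6, 75.9 and 122 TPM in LMPP, 36, 55.5, 42.5 and 40.7 in CLP and 44.9, 41.6, 48.1 and 56.8 in GMP. Its lowest LMPP library, 63.6 TPM, lay above the highest of the others, 56.8 TPM. Cxcr4, the receptor that holds progenitors in the marrow through its ligand Cxcl12, was at 68.5, 65.7, 153 and 95.3 TPM in LMPP, 168, 112, 219 and 222 in CLP and 92.4, 80.04, 192 and 186 in GMP, with LMPP and GMP overlapping across batches and differences of -0.94 to CLP and -0.5 to GMP (limma adjusted p = 0.00693 and 0.0488). Esam, an endothelial adhesion molecule also found on stem cells, ranged over 1.39 to 1.8 TPM in LMPP, 0.11 to 0.7 in CLP and 0 to 0.1 in GMP. Emcn, endomucin, a sialomucin of endothelium and stem cells, was at 14.8, 19, 7.79 and 19.7 TPM in LMPP, 2.92, 5.11, 0.82 and 4 in CLP and 1.15, 0.5, 1.11 and 0.28 in GMP. Of 12 listed stromal and endothelial genes 2 were tested, Emcn and 1 more that was higher in the mean contrast only. Cdh5, Kdr, Cxcl12, Lepr and Col1a1 were below the filter. The summed list, which includes Emcn, was 25.3 to 31.4 TPM in LMPP, 6.66 to 13.2 in CLP and 2.33 to 4.61 in GMP. The part of stromal or endothelial cells in the Emcn result was not tested. Cxcr4 lost its call in 8 of the 12 fits that each left out 1 library (smaller difference -0.62 to -0.36). Esam lost its call, with the smaller difference then in brackets, without CLP batch 1 replicate 1 (0.93) and LMPP batch 1 replicate 1 (0.99). Cxcr4 (-0.43) and Esam (0.51) lost their calls under quantile normalization, and Esam (0.99) lost its call without the haemoglobin-rich pair. Itga6 (0.83) and Esam (0.87) lost their calls without both CLP libraries of batch 2.

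The remaining genes named by rule from the higher set come from no single pathway. Vldlr, the very low density lipoprotein receptor (chr19:27216484-27254231), was at 23.3, 26.2, 17.7 and 35.7 TPM in LMPP, 0.87, 5.49, 0.72 and 0.05 in CLP and 0.48, 0.34, 0.14 and 0.73 in GMP. Gcnt2, the enzyme that branches poly-N-acetyllactosamine chains on glycoproteins (chr13:40859754-40960892), was at 87.2, 83.6, 80.1 and 108 TPM in LMPP, 11.6, 24.4, 5.89 and 2.26 in CLP and 4.59, 4.83, 8.73 and 7.36 in GMP. Adgrl4, an adhesion G protein-coupled receptor (chr3:151437887-151545086), was the most abundant of them, at 417, 338, 346 and 395 TPM in LMPP, 48.1, 135, 13.5 and 15.9 in CLP and 58, 43.7, 66.7 and 56.5 in GMP. LMPP stood above all other libraries for each, with smaller differences of 3.58, 3.29 and 2.72. In all 3 the CLP libraries of batch 1 were above those of batch 2.

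Rgs1, a regulator of G protein signalling (chr1:144242296-144249242), was at 58.9, 31.4, 41.1 and 60.9 TPM in LMPP, 4.1, 9.48, 3.78 and 4.41 in CLP and 2.32, 3.79, 7.29 and 3.31 in GMP, with differences of 2.96 to CLP and 3.28 to GMP (limma adjusted p = 0.000486 and 5.74e-05). Tnip3, a partner of the NF-kappa B inhibitor A20 (chr6:65525313-65634040), was at 9.65, 8.45, 15.4 and 20.4 TPM in LMPP, 0.26, 1.95, 0.2 and 0 in CLP and 0.12, 0.07, 0.07 and 0.14 in GMP, close to 0 in all but 1 library of the other types. Gm10482, a long intergenic non-coding RNA (chr5:10187866-10237890), was at 6.87, 6.71, 9.16 and 24.2 TPM in LMPP, 1.61, 1.33, 0.18 and 0 in CLP and 0.14, 0.13, 0 and 0 in GMP, with its highest value in LMPP batch 2 replicate 3. Ctla2b, a cysteine protease inhibitor-like gene (chr13:60895350-60897447), was at 46.7, 50.4, 27.5 and 54 TPM in LMPP, 7.5, 7.51, 1 and 0.38 in CLP and 3.37, 3.43, 1.02 and 1.48 in GMP, and its near copy Ctla2a ranged over 71.5 to 130.02 TPM in LMPP, 4.45 to 47.2 in CLP and 3.6 to 8.21 in GMP; reads shared between the copies make their split uncertain. Each of these genes kept its call in both branches under every alternative that gave it a value.

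Chemokine genes stood among them. Ccl3, a chemokine that attracts leukocytes (chr11:83647844-83649355), was at 75.1, 32.9, 79.7 and 108 TPM in LMPP, 3.72, 13.5, 16 and 5.94 in CLP and 5.32, 5.43, 4.6 and 2.97 in GMP, and Ccl4, its neighbour in sequence and function, ranged over 6.05 to 15.9 TPM in LMPP, 0 to 3.47 in CLP and 0 to 0.73 in GMP. LMPP exceeded every other library for both, with differences of 2.87 to CLP and 3.65 to GMP and 2.64 to CLP and 3.22 to GMP. Of 7 tested chemokine genes with Ccl or Cxcl symbols, a family chosen after values were seen, 2 were higher in both branches and 2 in the mean contrast only. The share higher in both branches over all tested genes was 3.86%. Ccl6 averaged 19.8 ± 27.4 TPM in LMPP, 11.8 ± 18 in CLP and 5.57 ± 3.06 in GMP (SD, n = 4) and was not called. Ccl9 averaged 50.7 ± 13.5 TPM in LMPP, 7.23 ± 6.84 in CLP and 85.5 ± 13.4 in GMP (SD, n = 4), with a difference of 3.15 to CLP and -0.77 to GMP. Among megakaryocyte and erythroid genes Selp, P-selectin, ranged over 8.23 to 13.1 TPM in LMPP, 0.06 to 1.2 in CLP and 0.64 to 3.18 in GMP, and Car2, carbonic anhydrase 2, ranged over 178 to 471 TPM in LMPP, 17.6 to 231 in CLP and 12.5 to 21.2 in GMP with its highest CLP value in the haemoglobin-rich library. These were 2 of 18 tested members of that list, beside 3.86% of all tested genes, and 4 more passed in the mean contrast only. Car2 lost its call in 6 of the 12 fits that each left out 1 library (smaller difference 1.62 to 2.52). Car2 (1.87) lost its call under median-ratio scaling.

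Genes of the interferon response were also in the higher set. Type I interferon acts through a factor complex that contains STAT2 and IRF9 and binds the interferon-stimulated response element in the promoters of antiviral genes. All 30 listed genes were tested, and 11 were higher in both branches (Ifit1, Ifit3, Ifi44, Rsad2, Oasl2, Oas2, Oas3, Ddx58, Ifitm1, Ifitm3 and Ifi27), beside 3.86% of all tested genes. A further 10 were higher in the mean contrast only, and none was lower. Their median mean contrast was 1.13, with 0.66 to CLP and 1.54 to GMP. The summed TPM of the list was 1828 to 2672 in LMPP, 979 to 1259 in CLP and 975 to 1618 in GMP, so that LMPP lay above both other groups, which overlapped each other.

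The antiviral effectors gave the clearest values. Ifit1, which binds foreign RNA (chr19:34640871-34650009), was at 6.5, 4.53, 5.07 and 4.68 TPM in LMPP, 1.24, 1.09, 1.25 and 1.3 in CLP and 0.16, 0.55, 0.82 and 0.74 in GMP. Oas3, an oligoadenylate synthase that activates RNase L (chr5:120753098-120777661), was at 18.2, 18, 27.8 and 21.1 TPM in LMPP, 5.96, 8.08, 9.76 and 4.37 in CLP and 1.58, 1.89, 0.94 and 1.88 in GMP. LMPP overlapped no other library for either gene, with differences of 1.47 to CLP and 1.99 to GMP (limma adjusted p = 0.00241 and 9.42e-05) and 1.5 to CLP and 3.11 to GMP (limma adjusted p = 0.00464 and 1.47e-05). Oasl2, a related protein, was at 40.2, 26.2, 60.4 and 78.8 TPM in LMPP, 8.06, 15.6, 10.2 and 1.26 in CLP and 4.44, 4.75, 8.75 and 6.79 in GMP, and Oas2 ranged over 3.33 to 15.6 TPM in LMPP, 0.46 to 2.54 in CLP and 0.23 to 0.8 in GMP. Rsad2, viperin, was at 13.1, 5.83, 38.2 and 11.2 TPM in LMPP, 1.14, 0.86, 14.6 and 1.05 in CLP and 0.55, 1.37, 0.53 and 1.05 in GMP; CLP batch 2 replicate 1, of the haemoglobin-rich pair, stood at 14.6 TPM against 1.14 TPM or less in the other CLP libraries and overlapped LMPP. Ifit3 ranged over 1.32 to 5.69 TPM in LMPP, 0.09 to 1.77 in CLP and 0.04 to 0.85 in GMP and overlapped CLP in the same library, at 1.77 TPM.

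The membrane restriction factors were more abundant. Ifitm3, which blocks viral entry (chr7:141009586-141010770), was at 575, 522, 728 and 726 TPM in LMPP, 164, 184, 304 and 115 in CLP and 243, 199, 342 and 397 in GMP. The lowest LMPP library, 522 TPM, lay above the highest other library, 397 TPM of GMP. Ifitm1, its neighbour, was at 309, 321, 233 and 281 TPM in LMPP, 65, 63, 28.3 and 5.11 in CLP and 67.2, 46, 90.5 and 79.5 in GMP, with differences of 3.27 to CLP and 2.03 to GMP (limma adjusted p = 0.00409 and 0.016). Slfn5, a Schlafen family member, ranged over 7.22 to 10.8 TPM in LMPP, 0.27 to 2.39 in CLP and 0.28 to 1.86 in GMP, without overlap, and Gbp2, a guanylate-binding protein, over 12.3 to 16.5 TPM in LMPP, 2.39 to 15.5 in CLP and 3.07 to 5.83 in GMP, where CLP batch 2 replicate 2 at 15.5 TPM overlapped LMPP. These were 1 of 5 tested Slfn genes and 1 of 7 tested Gbp genes called in both branches, with family medians of 0.3 and 0.25 in the mean contrast. All tested genes had 3.86% higher in both branches and a median of 0.2. Slfn2, Gbp4 and Gbp8 were not called, with differences of 0.54 to CLP and -0.37 to GMP, -1.19 to CLP and 1.63 to GMP and -0.78 to CLP and 2.63 to GMP. Within the Ifi200 family the direction was not shared. Of 9 tested genes Ifi203 and Ifi205 were higher in both branches, at mean contrasts of 1.65 and 2.11, while Ifi209 was lower, at -1.37 with means of 8.18 ± 2.52 TPM in LMPP, 29.1 ± 25.8 in CLP and 27.4 ± 14.1 in GMP (SD, n = 4).

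A family of immunity-related GTPases, chosen after values were seen, belonged to the same group. These enzymes act against intracellular parasites and are induced by interferon gamma. Of 6 tested members, Igtp, Iigp1, Irgm1, Tgtp1 and Tgtp2 were higher in both branches, beside 3.86% of all tested genes. Irgm2 was higher in the mean contrast only, and the family median was 1.54. Tgtp1 (chr11:48985327-48994172) was at 39.8, 37.6, 33.7 and 40.8 TPM in LMPP, 6.6, 11, 5.5 and 5.8 in CLP and 2.03, 2.3, 1.78 and 0.91 in GMP. Its log2 difference was 2.29 to CLP (SE 0.21, limma adjusted p = 0.00012) and 3.85 to GMP (SE 0.21, limma adjusted p = 6.86e-07). Tgtp2 was at 70.7, 66, 62.1 and 71 TPM in LMPP, 31.1, 29.7, 19.7 and 18.6 in CLP and 11.9, 13.3, 15.3 and 14.2 in GMP, and as a near copy of Tgtp1 it may share reads with it. Iigp1 was at 8.88, 6.87, 8.03 and 10.2 TPM in LMPP, 1.74, 3.45, 1.85 and 0.63 in CLP and 0.35, 0.39, 0.17 and 0.12 in GMP, close to 0 in GMP and in between in CLP. Irgm1 ranged over 19.9 to 30.9 TPM in LMPP, 13.1 to 19.5 in CLP and 10.1 to 12.4 in GMP and Igtp over 21.4 to 29 TPM in LMPP, 12.6 to 19.1 in CLP and 10.2 to 13.2 in GMP. Igtp (chr11:58199556-58207591) and Irgm2 (chr11:58199618-58222782) overlap on chromosome 11, so their reads are also uncertain.

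The regulators upstream of these targets differed less from CLP than from GMP. Stat2 averaged 11.6 ± 2.29 TPM in LMPP, 9.99 ± 2.83 in CLP and 5.37 ± 0.207 in GMP (SD, n = 4) and Irf9 27.5 ± 4.73 TPM in LMPP, 18.6 ± 6.07 in CLP and 9.38 ± 1.91 in GMP (SD, n = 4); both passed against GMP and not against CLP. Irf7, a factor that amplifies the response, averaged 8.04 ± 3.42 TPM in LMPP, 4.92 ± 2.89 in CLP and 1.48 ± 0.539 in GMP (SD, n = 4) and passed against GMP alone. Isg15, Ifit2 and Bst2, common members of the response, were not called; Ifit2 averaged 7.47 ± 1.11 TPM in LMPP, 6.13 ± 2.05 in CLP and 5.7 ± 1.93 in GMP (SD, n = 4). Irgm1 lost its call in 12 of the 12 fits that each left out 1 library (smaller difference 0.47 to 0.62), Rsad2 in 11 (1.7 to 2.8) and Gbp2 in 4 (0.97 to 1.54). Ifit3 lost its call, with the smaller difference then in brackets, without LMPP batch 2 replicate 1 (1.37) and LMPP batch 2 replicate 3 (1.29), Ifitm1 without GMP batch 1 replicate 1 (1.9) and GMP batch 1 replicate 2 (1.69) and Igtp without LMPP batch 1 replicate 2 (0.64) and LMPP batch 2 replicate 1 (0.59). Rsad2 (1.99), Igtp (0.51) and Irgm1 (0.4) lost their calls under median-ratio scaling, and Rsad2 (1.94), Igtp (0.56) and Irgm1 (0.42) lost their calls under quantile normalization. Gbp2 (1.24), Igtp (0.54) and Irgm1 (0.57) lost their calls without the haemoglobin-rich pair, and Ifit3 (1.27), Oas2 (1.41), Igtp (0.52) and Irgm1 (0.47) lost their calls without both CLP libraries of batch 2. The list count was 8 and 9 under median-ratio scaling and quantile normalization, 8 within batch 1 and 4 within batch 2, and the GTPase count was 3 under each of these.

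Promoter sequences with a match to the element that interferon factors bind are shown as examples, for some members of this group and for Ccl3. Windows from 250 bases before to 50 bases after each transcript start, from RefSeq on GRCm38.p6, were matched by symbol for 355 of the 491 higher and 57 of the 82 lower genes. The core GAAANNGAA, searched on both strands, was in 13.4% of 477 windows of the higher set, 4.2% of 71 windows of the lower set, 7.4% of 11685 windows of tested genes and 8.6% of 32851 windows in the table. The capitals mark the core or its reverse complement TTCNNTTTC, each sequence is written 5′ to 3′ on the strand of its gene, and all lie before the annotated gene start.
Ifit1, chr19:34640765-34640828, plus strand: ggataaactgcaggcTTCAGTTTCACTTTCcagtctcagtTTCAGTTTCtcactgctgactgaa
Ifit3, chr19:34583359-34583450, plus strand: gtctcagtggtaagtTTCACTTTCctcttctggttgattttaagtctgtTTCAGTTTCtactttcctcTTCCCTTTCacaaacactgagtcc
Oas3, chr5:120777690-120777749, minus strand: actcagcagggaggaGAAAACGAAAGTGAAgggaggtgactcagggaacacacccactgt
Rsad2, chr12:26456527-26456586, minus strand: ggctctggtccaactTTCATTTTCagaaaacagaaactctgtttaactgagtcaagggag
Tgtp2, chr11:49064238-49064297, minus strand: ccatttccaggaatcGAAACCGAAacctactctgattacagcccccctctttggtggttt
Igtp, chr11:58199496-58199555, plus strand: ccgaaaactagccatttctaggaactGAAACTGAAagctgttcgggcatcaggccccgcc
Ccl3, chr11:83649379-83649438, minus strand: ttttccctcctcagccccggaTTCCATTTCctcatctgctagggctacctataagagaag

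Ifit1 and Ifit3 each hold 3 matches within 155 bases of the start, Oas3 holds 2 overlapping matches, and the other 4 windows hold 1 each. In Ifit1 the nearest match begins 84 bases before the start and in Igtp the match begins 34 bases before it. The chemokine gene Ccl3, which is not on the interferon list, holds a match 39 bases before its start. Other higher genes outside the list, such as Mecom, Postn and Plxnc1, also held the core, so it is not particular to this group. Listed members such as Oas2, Oasl2, Ifitm1 and Ifitm3 gave no match before the start, for lack of the core or of a matched window. A match describes the letters of a window and is no evidence of binding. TTANGTAA, a core of the PAR bZIP family to which Hlf belongs, was in 2.1% of windows of the higher set, 1.4% of the lower set and 1.5% of tested genes. The AP-1 site TGANTCA was in 7.1%, 5.6% and 4.9% in the same order, and the E2F site TTTGGCGC in 0.4%, 5.6% and 1.0%.

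Immediate early genes, which are switched on within minutes of a stimulus, were mostly higher in the mean contrast. Of 17 listed genes 14 were tested. Egr1, Ier3 and Zfp36 were higher in both branches, beside 3.86% of all tested genes. In the mean contrast only, 8 were higher, including Fos, Jun and Junb, and none was lower. Zfp36, which speeds the decay of cytokine transcripts (chr7:28376784-28380253), was at 164, 100.2, 241 and 382 TPM in LMPP, 32.2, 73.3, 126 and 105 in CLP and 27.5, 26.2, 49.3 and 27.4 in GMP. Egr1, a zinc finger factor, was at 30.7, 9.38, 59.2 and 132 TPM in LMPP, 2.66, 6.73, 12.8 and 9.58 in CLP and 0.99, 1.06, 2.55 and 0.93 in GMP. The LMPP libraries differed widely among themselves, 9.38 to 132 TPM for Egr1, and its lowest value lay below CLP batch 2 replicate 1 at 12.8 TPM. Ier3, an inducible survival gene, ranged over 12.3 to 30.1 TPM in LMPP, 0.61 to 6.38 in CLP and 4.41 to 13.1 in GMP. Fos averaged 81.3 ± 57.9 TPM in LMPP, 14.7 ± 9.5 in CLP and 29.3 ± 9.49 in GMP (SD, n = 4), with a difference of 2.43 to CLP that passed and 1.24 to GMP that did not (limma adjusted p = 0.0635).

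The summed TPM of the immediate early list was 422 to 1375 in LMPP, highest in LMPP batch 2 replicate 3, against 198 to 387 in CLP and 247 to 409 in GMP. Ier3 lost its call in 6 of the 12 fits that each left out 1 library (smaller difference 1.24 to 1.69). Ier3 (1.21) lost its call under median-ratio scaling, and Ier3 (1.18) lost its call under quantile normalization. Ier3 (1.44) lost its call without the haemoglobin-rich pair, and Egr1 (2.25) lost its call without both CLP libraries of batch 2. The list count in both branches was 0 within batch 1 and 1 within batch 2, where its median mean contrast was 1.11 and 1.79.

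Of 19 listed CDK inhibitor and quiescence genes 16 were tested. Txnip, Klf6, Foxo3, Tob1 and Rbl2 were higher in both branches, beside 3.86% of all tested genes. Cdkn1b was higher in the mean contrast only, and 10 were not called. The list median was -0.09 to CLP and 1.0 to GMP. Txnip, an inhibitor of thioredoxin and of glucose uptake (chr3:96557957-96561883), was at 228, 235, 172 and 190.3 TPM in LMPP, 89.6, 97.4, 81.1 and 64 in CLP and 62.8, 46.6, 55 and 38 in GMP. The lowest LMPP library, 172 TPM, lay well above the highest other, 97.4 TPM, with differences of 1.31 to CLP (SE 0.15, limma adjusted p = 0.000461) and 2.02 to GMP (SE 0.15, limma adjusted p = 8.4e-06). Foxo3, a forkhead factor of stem cell quiescence (chr10:42181841-42276755), was at 33, 33.1, 38.2 and 32 TPM in LMPP, 19.2, 22.9, 14.6 and 12.6 in CLP and 17.2, 12.2, 13.7 and 18 in GMP, with no overlap. Rbl2, the pocket protein p130, ranged over 23.5 to 35.1 TPM in LMPP, 17.7 to 23.4 in CLP and 15.2 to 23.2 in GMP, Klf6, a zinc finger factor, over 15.5 to 39.2 TPM in LMPP, 5.58 to 25 in CLP and 4.92 to 13.8 in GMP, and Tob1, an antiproliferative protein, over 7.85 to 22.7 TPM in LMPP, 2.55 to 17.6 in CLP and 1.67 to 7.34 in GMP. Klf6 and Tob1 were higher in batch 2 than in batch 1 in every type, so that CLP of batch 2 overlapped LMPP of batch 1.

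Cdkn1a and Cdkn1b, which encode CDK inhibitors, were not called the same way in both branches. Cdkn1a, encoding p21, averaged 36.1 ± 21 TPM in LMPP, 123 ± 40.3 in CLP and 16.3 ± 7.27 in GMP (SD, n = 4), with differences of -1.85 to CLP and 1.04 to GMP. Cdkn1b, encoding p27, averaged 13.5 ± 3.27 TPM in LMPP, 12 ± 6.28 in CLP and 4.64 ± 1.06 in GMP (SD, n = 4) and passed against GMP alone. Among 32 tested DNA replication genes none was called in both branches, 6 were lower in the mean contrast only (Mcm2, Mcm5, Dut, Uhrf1, Ccne1 and Ccne2), and the median was -0.25. That median was 0.08 within batch 1 and -0.59 within batch 2, and median-ratio scaling gave 3 genes lower in both branches. Among 30 tested mitosis genes none was called in the mean contrast, with a median of -0.05. Their median was 0.39, with 9 higher in the mean contrast, once both CLP libraries of batch 2 were left out. Tob1 lost its call in 10 of the 12 fits that each left out 1 library (smaller difference 0.63 to 0.91) and Rbl2 in 4 (0.51 to 0.69). Klf6 lost its call, with the smaller difference then in brackets, without LMPP batch 1 replicate 1 (1.0). Rbl2 (0.41) and Tob1 (0.63) lost their calls under median-ratio scaling, and Tob1 (0.71) lost its call under quantile normalization. Foxo3 (0.85), Rbl2 (0.54) and Tob1 (0.9) lost their calls without the haemoglobin-rich pair, and Foxo3 (0.62) and Rbl2 (0.49) lost their calls without both CLP libraries of batch 2.

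A few MHC class II genes were higher in LMPP in both branches. Class II molecules present antigen and are best known on B cells, dendritic cells and macrophages. Of 15 listed genes 14 were tested. The chain genes H2-Aa, H2-Ab1 and H2-Eb1 were higher in both branches, beside 3.86% of all tested genes. H2-Ob, Cd74 and Rfx5 were higher in the mean contrast only, and the other 8 were not called. Ciita, the master regulator, was below the filter. H2-Aa (chr17:34282744-34287823) was at 78.9, 93.3, 149 and 459.8 TPM in LMPP, 31.3, 30.4, 105 and 42.6 in CLP and 7.45, 15.2, 7.73 and 5.68 in GMP. H2-Ab1 was at 59.5, 55.8, 105 and 312 TPM in LMPP, 20.6, 22.6, 72.5 and 87.6 in CLP and 8.28, 11.3, 14.9 and 18.5 in GMP. H2-Eb1 ranged over 13.1 to 79.8 TPM in LMPP, 2.39 to 19.6 in CLP and 0.68 to 2.45 in GMP. LMPP batch 2 replicate 3 stood far above the other LMPP libraries for all 3 genes, and CLP of batch 2 overlapped LMPP of batch 1. The smaller difference, to CLP, was 1.7 for H2-Aa, 1.28 for H2-Ab1 and 1.86 for H2-Eb1.

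Markers of antigen-presenting cells were compared beside these genes. The summed dendritic cell list was 342 to 949 TPM in LMPP, highest in the same batch 2 replicate 3 library, 241 to 749.8 in CLP and 133 to 177 in GMP. This sum includes Cd74 and Ciita, which are also on the class II list, so it is not independent of that list. None of its 12 tested members was called in both branches, and 5 passed in the mean contrast (Tcf4, Irf7, Flt3, Cd74 and Clec9a). Siglech, a defining marker of plasmacytoid dendritic cells, averaged 2.8 ± 3.88 TPM in LMPP, 25.8 ± 31.6 in CLP and 0.18 ± 0.27 in GMP (SD, n = 4). The summed B lineage list was 288 to 953 TPM in LMPP, 296 to 8220 in CLP and 223 to 326 in GMP, highest in CLP, and its median was -3.95 to CLP and 1.01 to GMP. The part of such cells in the class II result was not tested. H2-Aa lost its call in 9 of the 12 fits that each left out 1 library (smaller difference 1.23 to 2.01), H2-Eb1 in 9 (1.42 to 2.27) and H2-Ab1 in 3 (0.94 to 1.52). H2-Aa (1.53) and H2-Eb1 (1.71) lost their calls under median-ratio scaling, and H2-Eb1 (1.79) lost its call under quantile normalization. H2-Aa (2.0) and H2-Eb1 (2.29) lost their calls without both CLP libraries of batch 2.

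On the early lymphoid list LMPP stood nearer to CLP than to GMP. Of 28 tested genes 3 (Cd27, Btla and Il2rg) were higher in both branches, beside 3.86% of all tested genes. In the mean contrast only, 9 passed upward and 2 downward (Tcf3 and Cnn3). The list median was -0.28 to CLP and 1.59 to GMP. Il2rg, the common gamma chain of cytokine receptors, was at 64.1, 62.9, 97 and 127 TPM in LMPP, 39.5, 46.7, 69.96 and 57 in CLP and 23.2, 21.5, 33.3 and 36.9 in GMP. Cd27, a tumour necrosis factor receptor family member of multipotent and lymphoid cells, was at 228, 189.8, 148 and 247 TPM in LMPP, 114, 209, 19.2 and 25.3 in CLP and 49.8, 53.8, 60.5 and 43.8 in GMP, with CLP of batch 1 close to LMPP and CLP of batch 2 far below. Btla, an inhibitory receptor of lymphocytes, was at 7.76, 7.1, 14.8 and 25.8 TPM in LMPP, 3.13, 5.97, 6.76 and 5.03 in CLP and 2.06, 2.76, 7.63 and 7.04 in GMP, with overlap across batches. Cd27 lost its call in 10 of the 12 fits that each left out 1 library (smaller difference 1.34 to 1.95) and Btla in 5 (0.92 to 1.31). Cd27 (1.57) lost its call under median-ratio scaling, and Cd27 (1.8) lost its call under quantile normalization. Cd27 (1.36) and Btla (1.15) lost their calls without the haemoglobin-rich pair, and Cd27 (0.4) and Btla (0.65) lost their calls without both CLP libraries of batch 2.

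The gate genes describe the sort and are no finding. Ly6a, the gene of Sca1, was at 114, 86, 122 and 156 TPM in LMPP, 37.6, 29.9, 27.3 and 2.24 in CLP and 8.84, 4.86, 5.99 and 9.86 in GMP, and Kit, the receptor of stem cell factor, at 115, 89.5, 95 and 134 TPM in LMPP, 15.3, 20.9, 27.6 and 46.7 in CLP and 52.7, 53.6, 73 and 71 in GMP. Both were called higher in LMPP in both branches. Ly6a lost its call, with the smaller difference then in brackets, without LMPP batch 2 replicate 1 (2.6) and LMPP batch 2 replicate 3 (2.47) and Kit without LMPP batch 1 replicate 1 (0.65). Kit (0.52) lost its call under median-ratio scaling. Cd34 ranged over 252 to 382 TPM in LMPP, 14.8 to 164 in CLP and 102 to 146 in GMP and passed the mean contrast, with 1.41 to GMP short of the call (limma adjusted p = 0.0595). Ptprc, Flt3, Fcgr3, Fcgr2b, Ly6c1 and Ly6c2 were called in the mean contrast through 1 branch. Cd3e, Itgam and Ly6g were not called. Il7r was not called in the mean contrast because its differences had opposite signs. They were -3.41 to CLP and 2.86 to GMP, and each passed (limma adjusted p = 2.53e-05 and 1.34e-05).

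The lower set was smaller and its genes were abundant. The median mean level over all libraries was 81.7 TPM for the 82 lower genes, 8.82 TPM for the 491 higher genes and 11.3 TPM for all tested genes. Lgals1, galectin 1, a galactoside-binding protein (chr15:78926725-78930465), was at 61.3, 89.4, 65.3 and 51.2 TPM in LMPP, 174, 106, 169.9 and 151 in CLP and 308, 284, 349 and 347 in GMP. LMPP lay below CLP and CLP below GMP without overlap, with differences of -1.16 to CLP (SE 0.19, limma adjusted p = 0.00389) and -2.28 to GMP (SE 0.19, limma adjusted p = 1.82e-05). Hmga1, an architectural chromatin protein of growing cells (chr17:27556497-27563674), was at 109.97, 98.2, 87 and 129 TPM in LMPP, 225, 236, 229 and 256 in CLP and 259, 182, 233 and 262 in GMP. The highest LMPP library, 129 TPM, lay below the lowest other, 182 TPM, and the differences to CLP and GMP were alike, -1.16 to CLP and -1.13 to GMP (limma adjusted p = 0.000874 and 0.000241). Hmga1 kept its call in both branches in all 30 alternatives, the 2-fold requirement included.

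**Figure D3:**
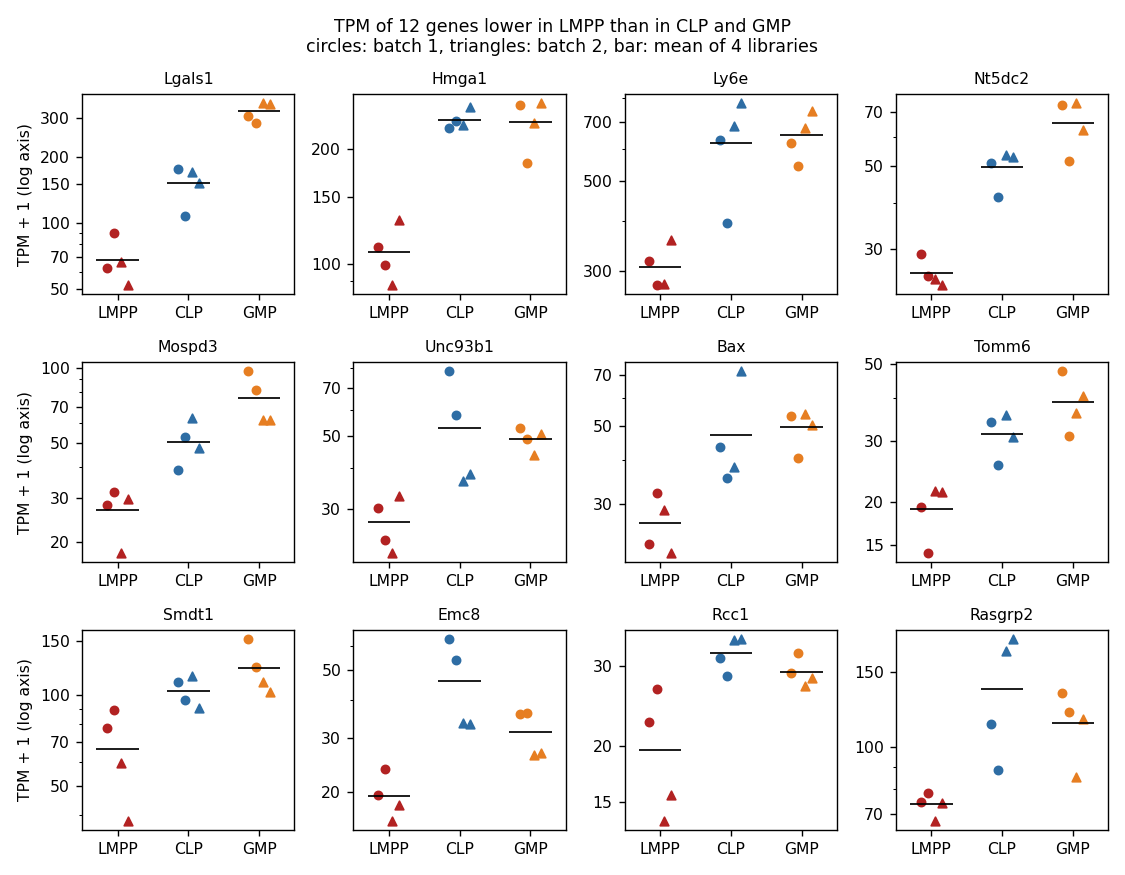
TPM + 1 on a log axis for the 12 genes chosen by rule from the lower set, with 1 point per library (circles batch 1, triangles batch 2) and a bar at the mean of 4 libraries. LMPP points lie below all others in every panel, with a wide gap in Hmga1 (at most 129 against at least 182 TPM) and a narrow one in Rcc1 (25.7 against 26.1 TPM).

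Ly6e, a GPI-anchored surface protein (chr15:74955051-74959905), was at 316, 277, 279 and 357 TPM in LMPP, 629, 394, 681 and 776 in CLP and 621, 545, 675 and 745 in GMP, with differences of -0.98 to CLP and -1.07 to GMP (limma adjusted p = 0.00385 and 0.000602); it went opposite to Ly6a, a relative in the same family. Nt5dc2, a member of a nucleotidase-like family, ranged over 23.1 to 28.1 TPM in LMPP, 40.4 to 52.8 in CLP and 50.6 to 72.7 in GMP. Unc93b1, the chaperone that carries Toll-like receptors to endosomes, was at 29.4, 23.2, 21.2 and 31.8 TPM in LMPP, 77.4, 56.8, 35.6 and 37.4 in CLP and 51.7, 48, 42.7 and 49.8 in GMP, with CLP of batch 1 highest. Bax, the pore-forming executor of apoptosis, ranged over 20.8 to 31.3 TPM in LMPP, 34.5 to 70.6 in CLP and 39.6 to 53.1 in GMP, and Mospd3, a protein of membrane contact sites, over 17.1 to 30.7 TPM in LMPP, 38.1 to 61.9 in CLP and 60.8 to 96 in GMP. Rcc1, the nucleotide exchange factor of Ran, ranged over 12.6 to 25.7 TPM in LMPP, 27.6 to 33.5 in CLP and 26.1 to 31 in GMP, and Rasgrp2, an exchange factor of Rap1, over 66.5 to 77.1 TPM in LMPP, 87.4 to 178 in CLP and 84.4 to 133 in GMP.

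The other genes named by rule from the lower set included 3 subunits of organelle membrane complexes. Tomm6, a small subunit of the import pore of the outer mitochondrial membrane, ranged over 13.3 to 20.6 TPM in LMPP, 24.5 to 34.7 in CLP and 30.04 to 46.7 in GMP. Smdt1, a subunit of the mitochondrial calcium uniporter, was at 76.5, 88.3, 58.5 and 37.4 TPM in LMPP, 109, 95.2, 114 and 89.7 in CLP and 152, 122, 109 and 101 in GMP, and Emc8, a subunit of the endoplasmic reticulum membrane insertase, at 18.6, 22.8, 15.1 and 17.1 TPM in LMPP, 62.1, 53.1, 32.5 and 32.4 in CLP and 35, 35.1, 25.4 and 25.7 in GMP. Emc8 was nearer to GMP, with differences of -1.2 to CLP and -0.69 to GMP (limma adjusted p = 0.000577 and 0.00413). Mgst2, a microsomal glutathione transferase named after its values were seen, was at 16.1, 12.2, 40.1 and 13.8 TPM in LMPP, 97.9, 58.4, 56.1 and 63.4 in CLP and 49.4, 55, 37.8 and 40.1 in GMP, and its highest LMPP library, of the haemoglobin-rich pair, overlapped GMP. Rnase12, an RNase A family gene, had the largest smaller difference of the lower set (-2.15) but ranged over 0.86 to 8.67 TPM in LMPP, 2.02 to 59.7 in CLP and 7.47 to 54.7 in GMP. Rasgrp2 lost its call in 10 of the 12 fits that each left out 1 library (smaller difference -0.79 to -0.5), Smdt1 in 10 (-0.82 to -0.51), Rnase12 in 10 (-2.72 to -1.55), Bax in 9 (-0.94 to -0.58), Rcc1 in 8 (-0.77 to -0.49), Tomm6 in 5 (-0.8 to -0.61) and Unc93b1 in 3 (-1.02 to -0.71). Mospd3 lost its call, with the smaller difference then in brackets, without LMPP batch 1 replicate 1 (-0.92) and LMPP batch 2 replicate 1 (-0.75). Bax (-0.93), Mospd3 (-0.63), Rcc1 (-0.5), Rasgrp2 (-0.56), Tomm6 (-0.73), Smdt1 (-0.62) and Rnase12 (-2.03) lost their calls without the haemoglobin-rich pair, and Bax (-0.6), Mospd3 (-0.56), Rcc1 (-0.44), Rasgrp2 (-0.33), Tomm6 (-0.73), Smdt1 (-0.42) and Rnase12 (-1.22) lost their calls without both CLP libraries of batch 2.

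The lower set held 4 actin-related genes that were picked after their values were seen, so they stand for no group. Pfn1, profilin 1, which feeds actin monomers to growing filaments (chr11:70651850-70654644), was at 373, 328, 411 and 392 TPM in LMPP, 475, 452, 652 and 639 in CLP and 569.8, 473, 544 and 621 in GMP. Cfl1, cofilin 1, which severs filaments (chr19:5490455-5495201), was at 385, 391, 363 and 373 TPM in LMPP, 502, 485, 603 and 483 in CLP and 583, 513, 571 and 612 in GMP. LMPP lay below every other library for both, with differences of -0.54 to CLP and -0.55 to GMP and -0.45 to CLP and -0.59 to GMP. Arpc4, a subunit of the Arp2/3 complex that branches filaments, ranged over 132 to 163 TPM in LMPP, 188 to 212 in CLP and 212 to 262 in GMP, and Arhgdia, a GDP dissociation inhibitor of small GTPases, over 200.5 to 257 TPM in LMPP, 271 to 354 in CLP and 287 to 411 in GMP. The changes were under 2-fold. Arpc4 lost its call in 11 of the 12 fits that each left out 1 library (smaller difference -0.45 to -0.34), Arhgdia in 11 (-0.47 to -0.33) and Cfl1 in 4 (-0.49 to -0.37). Cfl1 (-0.32), Arpc4 (-0.3) and Arhgdia (-0.34) lost their calls under quantile normalization, and Pfn1 (-0.5), Cfl1 (-0.35), Arpc4 (-0.37) and Arhgdia (-0.31) lost their calls without the haemoglobin-rich pair. Pfn1 (-0.4), Cfl1 (-0.39), Arpc4 (-0.24) and Arhgdia (-0.34) lost their calls without both CLP libraries of batch 2.

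Subunits of the respiratory chain were among the lower set. The chain passes electrons through complexes I, III and IV and drives ATP synthase. On the list of 29 nuclear oxidative phosphorylation genes Cox5a, Cox8a and Atp5o were lower in both branches, beside 0.645% of all tested genes. In the mean contrast only, 5 more were lower, none was higher, and the median was -0.34. Families taken by symbol after values were seen held more: 4 of 36 Nduf genes of complex I (Ndufa11, Ndufc1, Ndufs5 and Ndufs8), 3 of 8 Uqcr genes of complex III (Uqcr10, Uqcr11 and Uqcrq), 4 of 15 Cox4 to Cox8 genes of complex IV (Cox5a, Cox6a1, Cox6b1 and Cox8a) and 4 of 16 Atp5 genes (Atp5e, Atp5g1, Atp5l and Atp5o). Family medians were -0.31, -0.52, -0.41 and -0.47.

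Atp5l, a membrane subunit of ATP synthase (chr9:44912557-44920742), was at 234, 264, 157 and 147 TPM in LMPP, 434, 456, 235 and 281 in CLP and 564, 468, 285 and 310.2 in GMP. Within each batch LMPP lay below CLP and CLP below GMP, while batch 1 was above batch 2 in every type. The differences were -0.8 to CLP (SE 0.11, limma adjusted p = 0.00126) and -1.0 to GMP (SE 0.11, limma adjusted p = 6.83e-05). Cox5a, a subunit of cytochrome c oxidase (chr9:57521274-57532426), was at 230.1, 247, 99.6 and 96 TPM in LMPP, 318, 329, 188 and 199 in CLP and 473, 425, 189.97 and 208 in GMP, and Uqcr10, of complex III (chr11:4701973-4704342), at 324, 342, 159 and 144 TPM in LMPP, 455, 456, 246 and 251 in CLP and 557, 518, 268 and 267 in GMP. Both showed the same batch step, so LMPP of batch 1 overlapped other types of batch 2, and within each batch LMPP was lowest. The mean contrast of Cox5a was -0.67 in batch 1 and -1.0 in batch 2, and that of Uqcr10 was -0.57 in batch 1 and -0.76 in batch 2. Ndufc1 ranged over 8.89 to 30.5 TPM in LMPP, 18.1 to 43.1 in CLP and 18.3 to 49.8 in GMP and Ndufs5 over 28.4 to 73.5 TPM in LMPP, 70.4 to 95.8 in CLP and 72.5 to 116 in GMP. Cox6b1 was at 234, 281, 209.8 and 202 TPM in LMPP, 376, 301, 372 and 336 in CLP and 432, 390.4, 370.4 and 335 in GMP, with every LMPP library below every other library.

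Of the 13 genes encoded in mitochondrial DNA none was called, and their median mean contrast was 0.26, beside 0.2 over all tested genes. With 0.645% of all tested genes lower in both branches, the lack of a call among 13 is no result about them. Of 25 listed mitochondrial ribosome genes Mrpl4 and Mrpl51 were lower in both branches and 2 in the mean contrast only. Mrpl4 ranged over 17.7 to 27 TPM in LMPP, 24.9 to 43.6 in CLP and 31.2 to 46.5 in GMP and Mrpl51 over 23.9 to 57.9 TPM in LMPP, 48.1 to 64.1 in CLP and 49.7 to 100.02 in GMP. Mrpl4 lost its call in 11 of the 12 fits that each left out 1 library (smaller difference -0.69 to -0.44), Mrpl51 in 10 (-0.7 to -0.48), Atp5o in 9 (-0.55 to -0.36), Ndufs5 in 5 (-1.11 to -0.73) and Cox8a in 4 (-0.68 to -0.51). Cox6a1 lost its call, with the smaller difference then in brackets, without LMPP batch 2 replicate 3 (-0.61). Cox8a (-0.48) lost its call under quantile normalization, and Cox8a (-0.55), Atp5o (-0.38), Cox6a1 (-0.66), Cox6b1 (-0.51), Ndufc1 (-0.57), Ndufs5 (-0.82), Mrpl4 (-0.64) and Mrpl51 (-0.5) lost their calls without the haemoglobin-rich pair. Atp5o (-0.25), Cox6a1 (-0.38), Cox6b1 (-0.42), Ndufc1 (-0.57), Ndufs5 (-0.44), Mrpl4 (-0.69) and Mrpl51 (-0.29) lost their calls without both CLP libraries of batch 2. The Nduf count of 4 became 9 under median-ratio scaling and 0 without the haemoglobin-rich pair or without both CLP libraries of batch 2. Over the 29 listed genes the median mean contrast was -0.2 within batch 1 and -0.57 within batch 2.

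Promoters of the lower set differed in letters from those of the higher set. The ETS core CCGGAAG, searched on both strands, was in 36.6% of windows of the lower set, 8.6% of the higher set, 18.5% of tested genes and 8.9% of the whole table. The sequences shown are examples from respiratory subunits. Lower genes of other kinds, such as Polr2j, Polr2f, Ppp4c, Nedd8 and Elob, also held the core, so it is not particular to these subunits. The capitals mark CCGGAAG or its reverse complement CTTCCGG, written 5′ to 3′ on the strand of the gene, from RefSeq on GRCm38.p6.
Atp5l, chr9:44920910-44920969, minus strand: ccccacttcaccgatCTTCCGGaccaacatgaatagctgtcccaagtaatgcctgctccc
Atp5e, chr2:174464159-174464218, minus strand: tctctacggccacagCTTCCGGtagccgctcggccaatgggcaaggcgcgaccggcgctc
Uqcr11, chr10:80406843-80406902, minus strand: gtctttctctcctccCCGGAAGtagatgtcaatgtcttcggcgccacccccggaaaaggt

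The match began 212 bases before the start in Atp5l, 102 in Atp5e and 66 in Uqcr11. The NF-Y site CCAAT was in 43.7% of windows of the lower set, 33.5% of the higher set and 38.4% of tested genes. Median GC of the windows was 59.0% in the lower set, 59.7% in the higher set and 60.3% over tested genes.

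Gene lists outside these groups gave few calls in both branches. Over all tested genes 3.86% were higher and 0.645% lower in both. The list of endoplasmic reticulum folding genes had 1 of 23 lower in both branches, Herpud1, a component of protein degradation at 15.4 to 20.7 TPM in LMPP, 19.4 to 44.5 in CLP and 22.3 to 31.9 in GMP, and 12 lower in the mean contrast only. Its median was 0.07 to CLP and -0.95 to GMP, so the mean contrast came from GMP; Hspa5, the main chaperone, averaged 297 ± 34.7 TPM in LMPP, 271 ± 116 in CLP and 736 ± 220.5 in GMP (SD, n = 4). Glycolysis gave 1 of 19 higher in both, Aldoc, an aldolase at 3.48 to 6.5 TPM in LMPP, 0.48 to 1.9 in CLP and 0.18 to 0.65 in GMP, with Slc2a3, Pfkm and Pdk1 higher and Gapdh, Eno1 and Ldha lower in the mean contrast only. Ribosomal proteins had none of 38 called in both branches and a median of -0.03, which was 0.12 under quantile normalization. B lineage, granulocyte-monocyte, dendritic, mast cell and T and NK lists had none called in both branches. With 10 to 25 tested members each, this lies near the share over all tested genes and is no result about these lists. Herpud1 lost its call, with the smaller difference then in brackets, without GMP batch 1 replicate 1 (-0.58) and LMPP batch 2 replicate 1 (-0.53). Herpud1 (-0.54) lost its call without the haemoglobin-rich pair, and Herpud1 (-0.55) lost its call without both CLP libraries of batch 2.

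**Figure D4:**
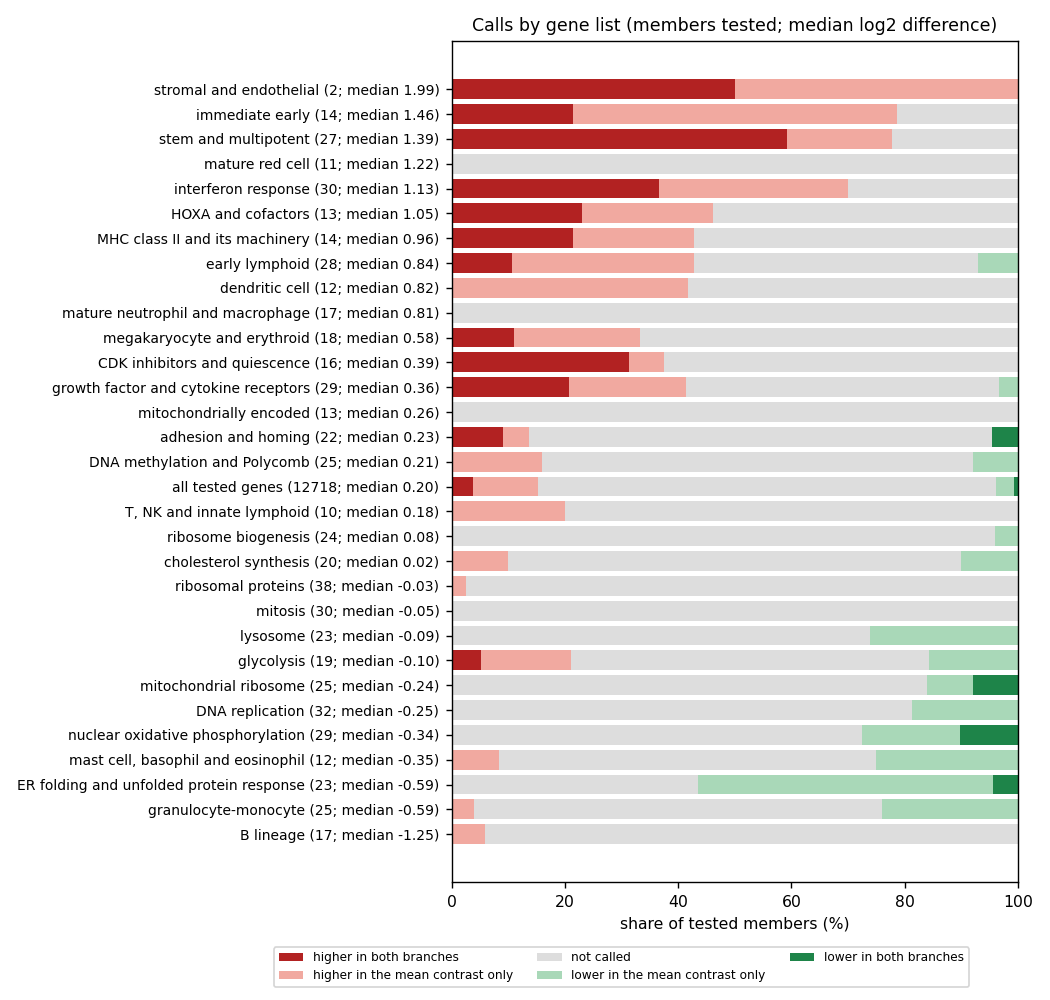
Share of tested members of each gene list that were higher in both branches (dark red), higher in the mean contrast only (light red), not called (grey), lower in the mean contrast only (light green) and lower in both branches (dark green), with the number tested and the median log2 mean contrast beside the name and all 12718 tested genes as a bar of its own. The stem and multipotent list has 16 of 27 in dark red and the interferon list 11 of 30. Lineage lists such as granulocyte-monocyte and B lineage have none in either dark colour. All tested genes have 3.86% in dark red and 0.645% in dark green.

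Genes with a large mean contrast that were not called in both branches show what the requirement removes. Muc13, Igkc and Rgcc differed the same way in both branches and missed the threshold in 1. Dntt, the terminal transferase of antigen receptor joining, had the smallest p of these, with a mean contrast of 3.55 ± 0.17 (SE, limma adjusted p = 7.76e-07), and was at 485, 536, 698 and 532 TPM in LMPP, 1468, 1848, 922 and 1341 in CLP and 0.88, 0.97, 0.31 and 0.61 in GMP. CLP stood above LMPP, so its differences had opposite signs, -1.28 to CLP and 8.38 to GMP. Muc13, a mucin, was at 72.1, 77.5, 51.6 and 75.8 TPM in LMPP, 1.51, 5.15, 7.07 and 1.21 in CLP and 27.3, 27.3, 45.2 and 45.5 in GMP, far above CLP and short of the call against GMP (0.94, limma adjusted p = 0.0847). Igkc, the kappa light chain constant region, ranged over 100.3 to 2669 TPM in LMPP, 2.39 to 997 in CLP and 8.86 to 20.7 in GMP, with its highest values in batch 2. Its differences were 2.66 to CLP, short of the call (limma adjusted p = 0.13), and 5.01 to GMP. On the lower side Elane had a mean contrast of -2.96 ± 0.79 (SE, limma adjusted p = 0.0235) with 0.78 to CLP and -6.69 to GMP. Dmkn and Ly6c2 were likewise lower against GMP alone, with -0.27 to CLP and -4.39 to GMP and 0.35 to CLP and -4.95 to GMP. Rgcc, a cell cycle regulator, was at -1.49 to CLP, short of the call (limma adjusted p = 0.0555), and -3.38 to GMP.

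The sets also differed in the make-up of their genes. The median transcript-model length was 3755 bases in the higher set, 1456 in the lower set and 3117 over all tested genes. Among 1352 tested genes under 1000 bases 2.37% were higher and 2.29% lower in both branches; among 598 genes over 8000 bases these shares were 5.52% and 0.17%. The share of lower genes was 1.2% from 1000 to 2000 bases, 0.41% from 2000 to 4000 and 0.11% from 4000 to 8000, while the share of higher genes rose with each length class. Median GC content of the genes was 46.7% in the higher set, 52.5% in the lower and 49.1% overall. The part of length and GC in the calls was not tested. Protein-coding genes made up 440 of the 491 and 72 of the 82, and long intergenic non-coding RNAs 12 and 1.

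The mean contrast of each of the 93 named genes called in both branches had the same sign in batch 1 and in batch 2. These genes, like the 491 and the 82, were called on both batches together. A like result in each batch was thus favoured by the choice and is no independent evidence. A limma test of the difference between batches, on 6 residual degrees of freedom, passed for 142 of 12718 genes, 2 of the 491 and none of the 82. At an unadjusted p under 0.05 the counts were 2177, 58 and 17. The counts in both branches were 416 higher and 63 lower from batch 1 by itself, and 228 and 72 from batch 2.

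**Figure D5:**
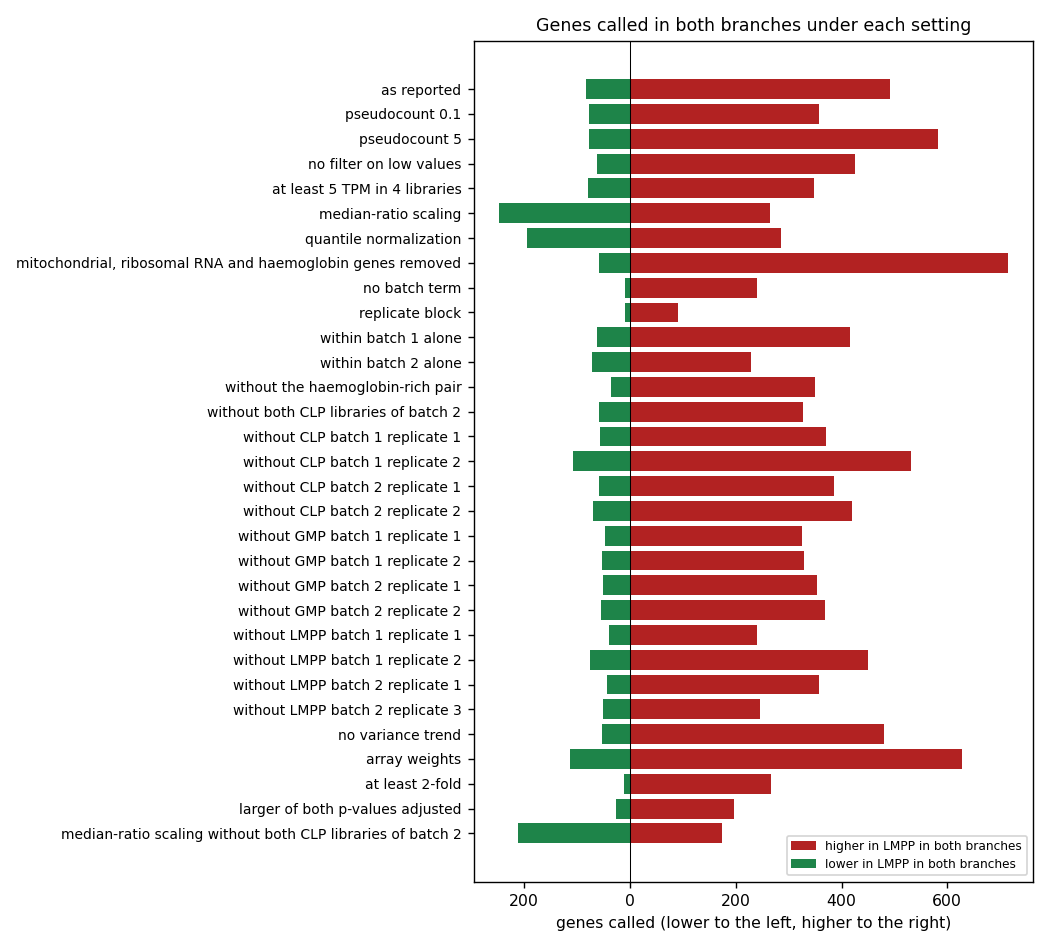
Number of genes called higher (right, red) and lower (left, green) in both branches under each setting, from 491 and 82 as reported. The higher count ranges from 91 with a replicate block to 714 with mitochondrial, ribosomal RNA and haemoglobin genes removed, and the lower count is largest, 247, under median-ratio scaling.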

How the data were processed

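RNA was sequenced from 12 bulk libraries, 4 each of LMPP, CLP and GMP. The authors deposited a table of TPM per Ensembl gene ID; the submitters' processing notes name RSEM 1.2.12, Bowtie2 2.2.0, edgeR 3.10.0 and mm10 without their order or settings. RSEM shares reads among near copies by estimate, and the use of strand is not stated in these sources, so overlapping and antisense genes cannot be told apart. TPM keeps no depth, so no counting interval is given. Samples were grouped by their titles; 17 other columns matched no sample and were not used. Symbols came from GENCODE M21 for 37607 of 38924 IDs.

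The 12718 genes that reached 1 TPM in 4 or more libraries (193 of them without a symbol) were fitted as log2(TPM + 1) with limma 3.58.1 in R 4.3.3, cell type plus additive batch, 8 residual degrees of freedom, a variance trend, and two-sided p-values adjusted by Benjamini-Hochberg over all tested genes. The pseudocount of 1 makes differences of low genes understate their fold. All adjusted p-values are from this fit, which was checked on simulated data. Median-ratio and quantile scaling, pseudocounts, filters, batch handling and left-out libraries were tried as alternatives.

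Named by rule were the 12 genes per direction with the largest smaller difference among those called in both branches, with no overlap and at least 10 TPM, up to 2 members per list, and 4 genes per direction called through 1 branch; 31 lists hold 683 entries, 681 matched and 631 tested. Some genes, 1 of the 12 higher ones included, are not reported here. Other genes were named after their values were seen. Members and lists were chosen with earlier results of these data known.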

Additional observations from a re-analysis of the deposited data

Results flagged for a closer look

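In a group of 4 libraries, a value was marked when its gap to the nearest other value, as a share of the range of the group, passed Dixon's critical value at 95%. Among 279 groups of named genes 9 were marked; chance marks about 1 in 20. In LMPP, Hlf stood at 152.99 TPM in batch 2 replicate 3 with the rest at 84.5 to 91.3 TPM, Hoxa10 at 9.78 TPM in batch 1 replicate 1 against 5.13 to 5.46 TPM, and Tal1 at 20.15 TPM in batch 2 replicate 1 against 11.3 to 12.1 TPM. In CLP, Ly6a stood at 2.24 TPM in batch 2 replicate 2 against 27.3 to 37.6 TPM, Rgs1 at 9.48 TPM in batch 1 replicate 2 against 3.78 to 4.41 TPM, and Rsad2 at 14.58 TPM in batch 2 replicate 1 against 0.86 to 1.14 TPM. In GMP, batch 2 replicate 1 gave a pair of the marked values: Egr1 at 2.55 TPM against 0.93 to 1.06 TPM, and Zfp36 at 49.31 TPM against 26.2 to 27.5 TPM. Ifit3 stood at 0.85 TPM in GMP batch 2 replicate 2 against 0.04 to 0.12 TPM.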

How the results depend on the processing

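Counts are given as higher and lower in the mean contrast, then higher and lower in both branches, which were 1946, 505, 491 and 82 as reported. Median-ratio scaling gave 1058, 1138, 265 and 247, and the same scaling without both CLP libraries of batch 2, chosen after seeing the data, gave 1168, 1457, 174 and 212. Quantile normalization gave 1044, 976, 285 and 195. Dropping the batch term gave 1098, 155, 241 and 9. The replicate block, batch and replicate number together, gave 524, 105, 91 and 10. Same-numbered libraries of a batch had residual correlations from -0.436 to 0.23, the highest in the haemoglobin-rich pair. Other pairs of unlike type in a batch ran from -0.392 to 0.137. The fit makes residuals cancel within a type and within a batch, so these values cannot decide whether the numbers pair the samples. Requiring a 2-fold difference gave 812, 104, 266 and 12. Batch 2 alone gave 597, 305 and 228 for the first 3 counts. Lower genes in both branches were 36 without the haemoglobin-rich pair and 53 without a variance trend, and higher genes in both branches were 327 without both CLP libraries of batch 2. Array weights gave 758 lower genes in the mean contrast, and adjusting the larger pairwise p gave 197 higher and 26 lower genes in both branches. With each library left out in turn, the counts ran from 1043 to 2189, 245 to 627, 240 to 532 and 40 to 108. The cause of these shifts was not tested. Of 93 named genes called in both branches none changed sign under any setting, 20 kept the call in every alternative, and 43 lost it when at least 1 library was left out. Depth is unknown, so what it limits cannot be stated.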
